A study of Mus musculus with 2 samples.

Results

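Collagens are the main structural proteins of the extracellular matrix, and each is built from chains encoded by separate genes. The genes described here are the 44 collagen chain genes among the 32285 features of a single-cell RNA dataset, chosen as every symbol that starts with Col, a number, the letter a and a number. By the structures their proteins form they fall into 11 fibrillar, 6 basement membrane, 6 beaded filament and 21 other chains. The cells came from mouse pancreata taken at embryonic day 14.5, and a droplet assay gave every captured RNA molecule a tag, its unique molecular identifier or UMI, close to the 3′ end. Embryos of genotype Fgf9 +/+ or +/- supplied 8 pancreata, from 3 litters, for the Control library. Fgf9 -/- embryos supplied 3 pancreata, also from 3 litters, for the Null library. Both came from the Fgf9-LacZ line on a C57BL/6J background, in which a LacZ cassette inserted at the Fgf9 locus stops the gene from working, so the Null embryos lacked this secreted growth factor in every cell. Embryo age was the same in both groups. With 1 pooled library per genotype there were no replicates, so nothing was tested between genotypes, and every interval below covers counting error only.

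Fibrillar chains such as those of types I, III and V assemble into the fibres of connective tissue, and mesenchymal cells are their usual source. Type IV chains form the sheet-like network of basement membranes beneath epithelia and around vessels, and type VI chains form beaded filaments that link fibres to cells. The other chains decorate fibrils (types IX, XII, XIV and XVI), sit at basement membrane zones (types XV and XVIII), span the cell membrane (types XIII, XVII, XXIII and XXV) or form short networks and anchors (types VII, VIII and X). In the developing pancreas a branching epithelium grows into a mesenchyme, with a basement membrane between them and a mesothelium over the surface.

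The 6 type IV genes lie as head-to-head pairs in the genome, which is why the sequence between their starts is shown first: the partners of a pair did not always have the same pattern across cells. Coordinates are from the GENCODE annotation of GRCm38, and the sequences are from RefSeq for GRCm38.p6, in which 35 of the 44 members had an entry. Capitals mark the letters TATAAA or CCAAT or GGGCGG. Each was searched on either strand, so that TTTATA counted as TATAAA, and likewise ATTGG as CCAAT and CCGCCC as GGGCGG. The starts of Col4a1 (minus strand) and Col4a2 (plus strand) overlap by 22 bases at chr8:11312805-11312826, within the first exon of both. The starts of Col4a4 (minus strand) and Col4a3 (plus strand) are separated by 71 bases at chr1:82586850-82586920. The starts of Col4a6 (minus strand) and Col4a5 (plus strand) are separated by 1308 bases on chromosome X, and 250 bases upstream of Col4a6 at chrX:141474077-141474326 and 216 bases upstream of Col4a5 at chrX:141475169-141475384 are given, each on its gene's strand. For comparison the 250 bases upstream of Col3a1 on the plus strand, the member with the most UMIs, are at chr1:45311288-45311537.
Col4a1 and Col4a2, shared start: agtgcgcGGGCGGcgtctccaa
Col4a4 and Col4a3, between the starts: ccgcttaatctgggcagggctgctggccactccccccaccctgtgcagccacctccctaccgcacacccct
Col4a6, upstream: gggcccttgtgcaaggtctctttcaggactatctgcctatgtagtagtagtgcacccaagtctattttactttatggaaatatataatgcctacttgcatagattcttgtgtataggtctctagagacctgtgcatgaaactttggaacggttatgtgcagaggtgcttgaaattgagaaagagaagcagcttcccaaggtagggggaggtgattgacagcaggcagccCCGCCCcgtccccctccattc
Col4a5, upstream: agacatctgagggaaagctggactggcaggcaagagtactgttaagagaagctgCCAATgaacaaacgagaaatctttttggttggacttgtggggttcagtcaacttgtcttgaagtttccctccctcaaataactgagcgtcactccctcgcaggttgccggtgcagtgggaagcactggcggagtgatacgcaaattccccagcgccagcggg
Col3a1, upstream: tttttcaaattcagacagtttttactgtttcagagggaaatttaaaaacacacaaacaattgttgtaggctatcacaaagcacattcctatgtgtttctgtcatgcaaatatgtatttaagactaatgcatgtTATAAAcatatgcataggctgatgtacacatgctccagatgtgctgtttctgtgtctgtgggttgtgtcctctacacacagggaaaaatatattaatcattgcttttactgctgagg

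The Col4a6 stretch held 1 GGGCGG on the opposite strand, the Col4a5 stretch 1 CCAAT, and the Col3a1 stretch 1 TATAAA. Over 32851 promoter windows of 250 bases upstream of a start, 12.4% held TATAAA, 33.8% CCAAT and 32.7% GGGCGG on either strand. Of the 38 such windows of collagen genes, 5 held TATAAA, 13 CCAAT and 22 GGGCGG. These are matches of letters and say nothing of which factors bind.

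The Control library held 30209 barcodes with 339959625 UMIs and the Null library 16708 barcodes with 271129120 UMIs. After filters and doublet removal 26970 Control and 8869 Null cells remained, with median UMIs of 5751.5 and 24227. The libraries shared 180 barcodes, 73 of them among kept cells. Kept cells held 396338 (Control) and 347375 (Null) collagen UMIs, and 40 members had at least 100 kept UMIs over both. The other 4 were Col10a1 with 20, Col4a3 with 40, Col28a1 with 42 and Col6a4 with 81. Cells were sorted into classes by clustering and marker genes, with every collagen left out of both, so that a collagen level could not decide a cell's class. Low-UMI cells and clusters with more markers of another class than of their own stayed unnamed, and these made up 48.1% of Control and 11.6% of Null cells. Xist, the transcript of the inactive X chromosome in females, stood at 384 CPM in Control and 0.287 CPM in Null cells. The sexes of the pooled embryos thus differed between libraries, which bears on the 2 X-linked members, Col4a5 and Col4a6. CPM here means UMIs per 1000000 UMIs of the class, without haemoglobin and mitochondrially encoded genes. Each UMI stands for 1 molecule whatever its length, so no length scaling was applied.

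Mesenchymal-like cells had the highest summed collagen level in both libraries, followed by smooth muscle-like cells in Control and mesothelial-like cells in Null. All collagens together reached 7939 CPM in Control and 11186 CPM in Null mesenchymal-like cells (1797 and 687 cells). In mesothelial-like cells (1253 and 522) the sum was 3512 and 9831 CPM. Smooth muscle-like cells (116 and 55) held 3887 and 5359 CPM, and endothelial-like cells (314 and 183) 2123 and 3035 CPM. The epithelial classes were lower: 909 and 1031 CPM in ductal or trunk-like cells, 1041 and 917 CPM in endocrine progenitor-like cells, 437 and 281 CPM in endocrine-like cells and 164 and 108 CPM in acinar-like cells. Glial or neuronal-like cells (154 and 149) held 895 and 1749 CPM. Because classes differ in size, ductal or trunk-like cells still supplied 16.9% of Control and 17.6% of Null collagen UMIs, against 33.3% and 38.9% from mesenchymal-like and 16.3% and 28.3% from mesothelial-like cells. Unnamed cells held 16.9% of the Control and 2.59% of the Null collagen UMIs.

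**Figure D1:**
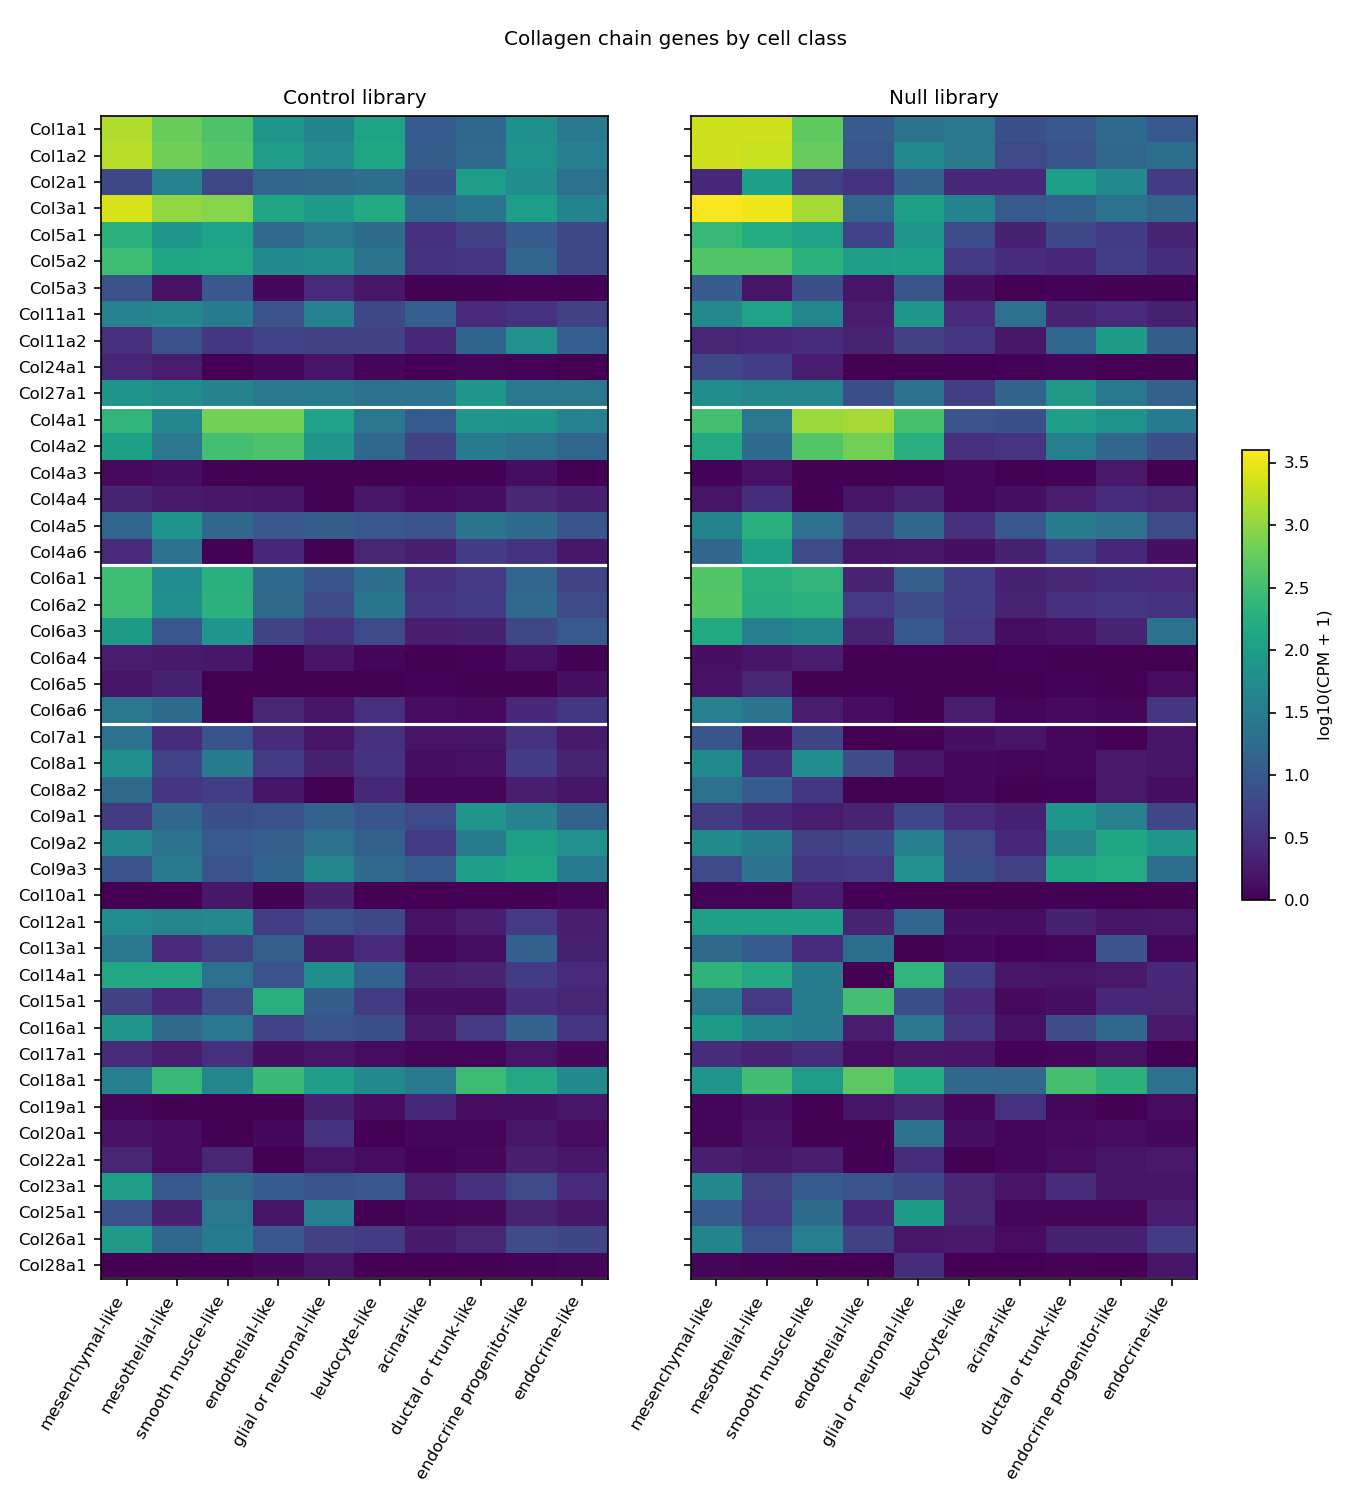
Level of each of the 44 collagen chains (rows, with white lines between fibrillar, basement membrane, beaded filament and other chains) in each cell class (columns) of the Control library (left) and the Null library (right), as log10(CPM + 1). Col1a1, Col1a2 and Col3a1 are brightest in mesenchymal-like and mesothelial-like cells, and Col6a1, Col6a2 and Col6a3 in mesenchymal-like and smooth muscle-like cells. Col4a1 and Col4a2 are brightest in smooth muscle-like and endothelial-like cells, Col9a1 and Col9a3 in ductal or trunk-like and endocrine progenitor-like cells, and Col9a2 in endocrine progenitor-like and endocrine-like cells.

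The class with the highest level was compared between libraries for the collagen chains alone, without the matching share over all features. Of the 40 members with at least 100 kept UMIs, 28 were highest in the same class in both: 14 in mesenchymal-like cells, 4 in mesothelial-like, 3 in endocrine progenitor-like, 2 each in endothelial-like, ductal or trunk-like and glial or neuronal-like cells, and 1 in acinar-like cells. Among the 12 that changed place were Col1a1, Col2a1 and Col12a1, each of which was highest in mesothelial-like cells in the Null library only. For Col2a1 and Col12a1 the Null mesothelial interval overlapped that of the next class.

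Mesothelial-like cells cover the organ's surface, and they held the largest Null over Control ratio of summed collagen among the classes compared. The sum was 3512 CPM in Control and 9831 CPM in Null cells, a log2 ratio of 1.49 (95% interval 1.47 to 1.5). In single cells the median collagen share was 0.319% of UMIs in Control and 0.914% in Null. The Control upper quartile of 0.472% lay below the Null lower quartile of 0.570%. Of the 37 members measured there (at least 20 UMIs over both libraries), 26 were higher and 11 lower in Null. Of these, 19 were at least 2-fold higher, against 5.94% of all features measured in this class, and 6 were at least 2-fold lower, against 7.81%. Their median log2 ratio was 1.07, beside -0.06 over all measured features.

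The fibrillar chains carried most of this difference in molecules. Col3a1, the type III chain of loose connective tissue, stood at 1042 CPM in Control and 3314 CPM in Null mesothelial-like cells (log2 ratio 1.67). Col1a1, which encodes the alpha 1 chain of type I collagen, stood at 580 and 2187 CPM (1.91). Col1a2, its partner chain, stood at 663 and 1982 CPM (1.58). All 3 of these abundant chains were thus over 2-fold higher in Null. Col5a2, a chain that controls fibril width, was at 131 and 418 CPM (1.67), and Col5a1 at 79.5 and 167 CPM (1.07). A pair of cartilage-type chains followed: Col2a1 stood at 39.0 and 106 CPM (1.45) and Col11a1 at 46.5 and 117 CPM (1.33). The exceptions among the 10 measured fibrillar chains were Col11a2 at 7.0 and 1.60 CPM (-2.13) and Col27a1 at 56.8 and 44.6 CPM (-0.35). As a group, 8 of 10 were at least 2-fold higher and the summed fibrillar ratio was 1.66.

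Thinning every cell to 2000 UMIs removed the depth difference (median 13154 UMIs in Control and 18786.5 in Null mesothelial-like cells). Col3a1 then had a UMI in 79.5% of 1250 Control and 96.3% of 517 Null cells, with 3 and 5 shallower cells left out. Without thinning they were 97.9% and 99.8%. In acinar-like cells, which are not a known source of this chain, where the median cell had 31911 and 47531 UMIs, 3.01% and 1.93% did after thinning.

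The basement membrane chains of the mesothelial-like class split by gene pair. Col4a6 stood at 20.7 CPM in Control and 114 CPM in Null cells (log2 ratio 2.46, 2.29 to 2.63), and Col4a5 at 67.0 and 192 CPM (1.52, 1.41 to 1.62). Mesothelial-like cells were the highest class for both genes in both libraries, with the next class at 3.28 CPM (Control, ductal or trunk-like) and 14.5 CPM (Null, mesenchymal-like) for Col4a6. After thinning, 5.04% of Control and 22.1% of Null mesothelial-like cells had a Col4a6 UMI (23.2% and 69.3% unthinned), against 0.290% and 0.363% of acinar-like cells. Col4a1 and Col4a2, the pair with the shared start, went the other way at low level: Col4a1 was at 46.9 and 24.7 CPM (-0.92) and Col4a2 at 25.8 and 17.4 CPM (-0.57). Their direction depended on the doublet call. Without the barcodes marked by a second call the ratios were 0.96 and 0.73. In this class that call marked 16.9% of the Control cells it scored and 1.41% of those of the Null library. Col4a4, partner of Col4a3, had 15 and 20 UMIs (1.30, 0.26 to 2.37), and Col4a3 had 7 and 5.

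Beaded filament chains were also higher in Null mesothelial-like cells. Col6a1 stood at 55.2 and 185 CPM (log2 ratio 1.75), Col6a2 at 63.4 and 173 CPM (1.45) and Col6a3 at 8.63 and 34.7 CPM (2.01). These are the classical chains that assemble into 1 type VI molecule, and all were at least 2-fold higher. Col6a6 was at 17.8 and 23 CPM (0.37), a ratio that was -0.31 without cluster 18. Col6a4 and Col6a5 had 21 and 35 UMIs over both libraries and intervals that included 0.

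The remaining chains of mesothelial-like cells did not share a direction, with 10 of 16 measured higher and 6 lower in Null. Col12a1, a chain that coats fibrils, stood at 42.0 and 115 CPM (log2 ratio 1.45), and Col16a1 at 16.3 and 40.9 CPM (1.33). Col13a1, a transmembrane collagen of adhesion sites, was at 1.68 and 9.42 CPM (2.48) but at 0.42 without cluster 18, and Col8a2 was at 2.66 and 9.72 CPM (1.87). Col18a1, the source of endostatin, was among the most abundant at 257 and 317 CPM (0.31). Lower in Null were Col9a1 at 14.7 and 1.5 CPM (-3.29), Col7a1 at 1.95 and 0.401 CPM (-2.29), Col23a1 at 8.90 and 3.81 CPM (-1.23), Col26a1 at 15.3 and 7.01 CPM (-1.13) and Col8a1 at 4.29 and 2.00 CPM (-1.10). Col9a1 is highest in ductal or trunk-like cells, and without the cells marked by the second doublet call its mesothelial ratio was -1.24.

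The mesothelial-like cells of the libraries fell into different clusters. Clusters 3, 11 and 2 held 491, 281 and 255 of the Control cells, whereas clusters 18 and 4 held 215 and 208 of the Null cells. Cluster 18, led by Pnoc, Angptl7 and Upk3b, had 0 Control cells. Within cluster 11 (281 and 68 cells) summed collagen was 3776 CPM in Control and 9280 CPM in Null, a log2 ratio of 1.30. Within cluster 4 (43 and 208 cells) it was 5605 and 12829 CPM, a ratio of 1.19. Both ratios lie below the 1.49 of the whole class but on the same side, and Col4a6 was 1.99 and 1.36 within the same clusters. Without cluster 18 the class ratio was 1.70.

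Other markers moved with the class. The summed level of the 10 mesenchymal markers was 586 CPM in Control and 1637 CPM in Null mesothelial-like cells, with 8 of 10 higher in Null and none at 0. The 10 mesothelial markers summed to 1224 and 1435 CPM, with 4 higher and 6 lower. The 10 acinar markers summed to 2688 and 1449 CPM and were all lower in Null, and the 7 erythroid markers summed to 22.9 and 1028 CPM. The 8 smooth muscle markers summed to 96.9 and 331 CPM, with 7 of 8 higher. Their part in the collagen ratios was not tested.

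**Figure D2:**
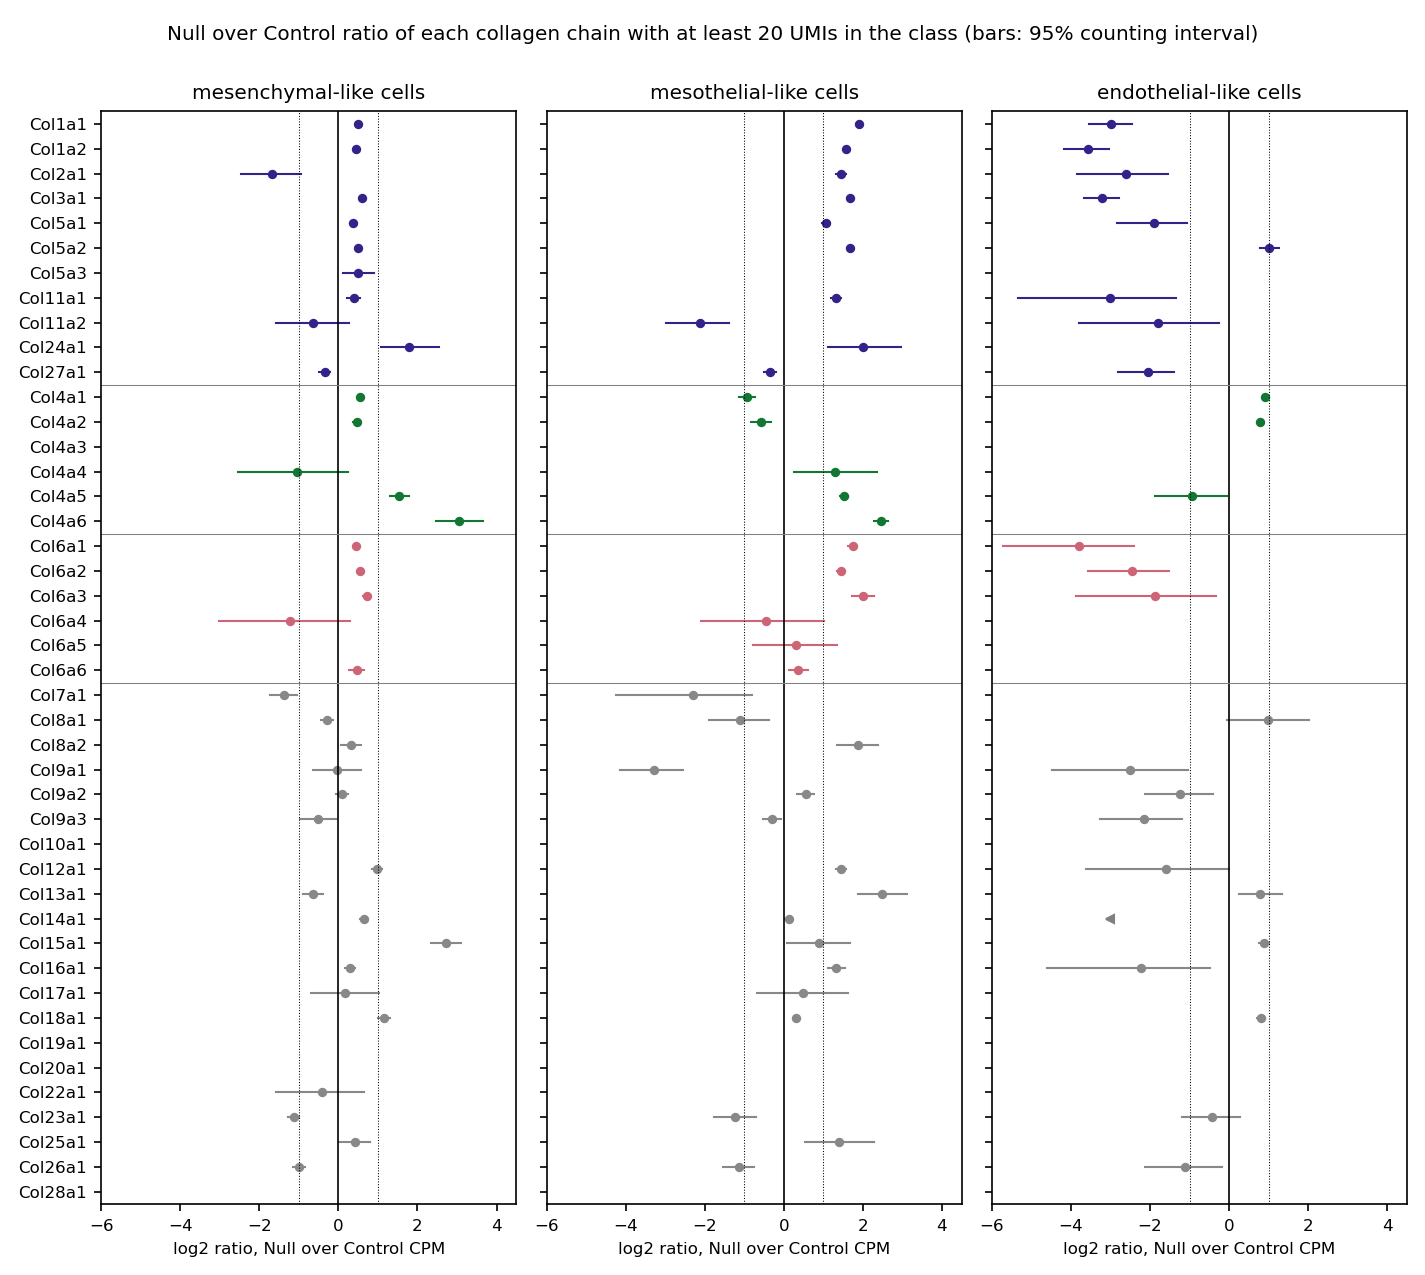
Log2 ratio of Null over Control CPM for each collagen chain with at least 20 UMIs in mesenchymal-like, mesothelial-like and endothelial-like cells. Points are ratios, bars are 95% counting intervals, the triangle is a bound for a chain with 0 Null UMIs, colours mark the 4 families and dotted lines a 2-fold ratio. Fibrillar and beaded filament chains lie mostly to the right in mesothelial-like cells, just right of 0 in mesenchymal-like cells and to the left in endothelial-like cells. In the endothelial-like panel Col5a2, Col4a1, Col4a2, Col8a1, Col13a1, Col15a1 and Col18a1 lie to the right.

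In mesenchymal-like cells the difference was smaller. Summed collagen was 7939 CPM in Control and 11186 CPM in Null, a log2 ratio of 0.49 (0.48 to 0.51). The median cell devoted 0.725% of its UMIs to collagen in Control and 1.04% in Null, with overlapping quartile ranges (0.526% to 1.01% and 0.740% to 1.51%). Of 38 members measured, 25 were higher and 13 lower in Null, and the median log2 ratio was 0.40 beside -0.01 over all measured features. Of these 38 members, 5 were at least 2-fold higher, against 3.66% of all measured features, and 6 were at least 2-fold lower, against 6.55%. Both were larger shares than over all measured features.

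The abundant fibrillar chains of the mesenchyme moved in a narrow band. Col3a1 stood at 2430 CPM in Control and 3700 CPM in Null mesenchymal-like cells (log2 ratio 0.61), Col1a2 at 1626 and 2203 CPM (0.44) and Col1a1 at 1485 and 2102 CPM (0.50). Col5a2 was at 298 and 421 CPM (0.50) and Col5a1 at 202 and 260 CPM (0.36). The same held for type VI, with Col6a1 at 304 and 414 CPM (0.45), Col6a2 at 303 and 446 CPM (0.56) and Col6a3 at 91.9 and 150 CPM (0.71). These 8 chains thus lay between 0.36 and 0.71 on the log2 scale. Subtracting free RNA, whose estimated share was 26.5% of Control and 6.19% of Null mesenchymal UMIs, lowered the summed ratio to 0.19, and each of the 8 stayed above 0.

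Of the 5 mesenchymal chains at least 2-fold higher in Null, 4 were type IV, XV or XVIII chains. Col4a6 stood at 1.75 CPM in Control and 14.5 CPM in Null (29 and 175 UMIs, log2 ratio 3.05), and Col4a5 at 13.9 and 40.6 CPM (1.54). Col15a1, which bridges basement membranes to the matrix beneath, was at 4.10 and 26.9 CPM (2.71). Col18a1, of the same family, was at 34.7 and 77.1 CPM (1.15). The fifth such member was Col24a1, a minor fibrillar chain, at 1.39 and 4.80 CPM (1.79). Col4a1 and Col4a2 were higher by less, at 232 and 341 CPM (0.56) and at 111 and 153 CPM (0.46). Col12a1 lay just under 2-fold at 56.1 and 111 CPM (0.98).

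Of the 13 mesenchymal chains lower in Null 6 were past 2-fold. Col23a1, a transmembrane collagen, stood at 98.7 CPM in Control and 45.1 CPM in Null (log2 ratio -1.13). Col26a1 was at 83.7 and 41.8 CPM (-1.0), Col7a1, the anchoring fibril chain, at 20.8 and 8.02 CPM (-1.38) and Col13a1 at 25.2 and 16.3 CPM (-0.63). Col2a1 had 83 and 19 UMIs (-1.67), at a level far below that of ductal or trunk-like cells. The estimated free RNA share of mesenchymal UMIs, given above, was larger in Control than in Null. Col4a4 and Col6a4, also past 2-fold, had 27 and 21 UMIs over both libraries and intervals that included 0. Col26a1 and Col23a1 depended on which clusters were compared: with clusters weighted alike the ratios were -0.06 and -0.47, and that of Col7a1 was -0.74.

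As in the mesothelium, the cluster make-up differed. Cluster 9, led by Aspn, Prrx1 and Ntrk2, held 824 of the 1797 Control cells and 4 Null cells, and cluster 7, led by Lum, Mgp and Stmn2, held 416 of the 687 Null cells and 35 Control cells. Col23a1 is itself among the leading genes of cluster 9. Within each of the 5 clusters with at least 20 cells in both libraries summed collagen was higher in Null. The log2 ratios were 1.07 in cluster 0 (292 and 29 cells), 0.60 in cluster 12 (137 and 55), 0.54 in cluster 14 (228 and 115), 0.39 in cluster 6 (161 and 51) and 0.27 in cluster 7. Cluster 6, led by Dcn, Col14a1 and Lum, had the highest Control collagen level of any of them, 13196 CPM, beside 17311 CPM in Null. Without cluster 7 the class ratio was 0.40 and that of Col4a5 was 0.99, and Col4a1 was 0.95.

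Col15a1 showed how unevenly the clusters could behave. It was higher in Null within cluster 12 (6 and 41 UMIs, log2 ratio 3.29) and cluster 14 (19 and 86 UMIs, 2.45). In cluster 6 it had 14 and 5 UMIs (-0.45, -2.28 to 1.10). The 8 smooth muscle markers summed to 301 CPM in Control and 768 CPM in Null mesenchymal-like cells, with 7 of 8 higher, and the 10 acinar markers to 3774 and 1555 CPM, with all lower. Their part in these ratios was not tested.

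**Figure D3:**
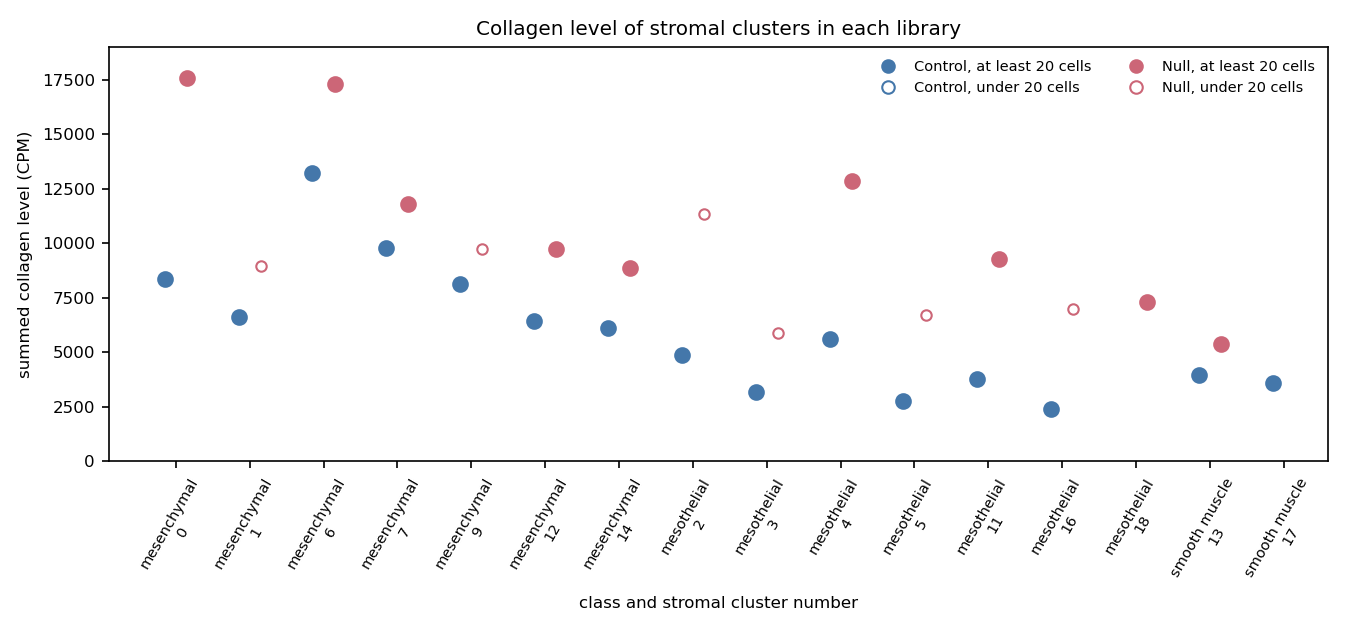
Summed collagen level (CPM, y axis) of each mesenchymal-like, mesothelial-like and smooth muscle-like cluster (x axis, by number) in the Control and Null libraries; open points mark fewer than 20 cells. The Null point lies above the Control point in every cluster with cells of both libraries, including clusters 0, 6, 7, 12 and 14 of the mesenchyme and 4 and 11 of the mesothelium.

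In smooth muscle-like cells, which were few (116 and 55), Col4a1 lay above either type I chain in both libraries. The same held in some other classes, such as endothelial-like and glial or neuronal-like cells. Col4a1 stood at 710 CPM in Control and 1156 CPM in Null (log2 ratio 0.70), Col4a2 at 335 and 439 CPM (0.39), beside Col1a1 at 391 and 525 CPM (0.43), Col1a2 at 447 and 580 CPM (0.37) and Col3a1 at 875 and 1306 CPM (0.58). Type VI chains together were at 473 CPM in both libraries (0.00, -0.17 to 0.17). Of 22 measured members 17 were higher in Null, and 3 were at least 2-fold higher, against 3.35% of all features measured in the class: Col15a1 (8 and 34 UMIs, 2.52), Col12a1 (1.19) and Col18a1 (1.01). None was 2-fold lower, against 4.48%. The class's own 8 smooth muscle markers were all lower in Null, at 7537 and 3423 CPM in sum, and the 7 pericyte or mural markers summed to 711 and 864 CPM. Cluster 17, with 22 Control cells, had 0 Null cells. The part of these in the collagen ratios was not tested.

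Endothelial-like cells line vessels and make the basement membrane around them, and their Col4a1, Col4a2, Col15a1 and Col18a1 levels were higher in Null. Col4a1 stood at 701 CPM in Control and 1320 CPM in Null (log2 ratio 0.91, 0.85 to 0.98), and Col4a2 at 396 and 679 CPM (0.78, 0.69 to 0.87). Col15a1 was at 178 and 330 CPM (0.89), Col18a1 at 285 and 495 CPM (0.80), and Col5a2, a fibrillar chain, at 50.1 and 101 CPM (1.01). Endothelial-like cells were the highest class for Col15a1 in both libraries, with the next at 10.4 CPM (Control, glial or neuronal-like) and 32.1 CPM (Null, smooth muscle-like). After thinning, 66.8% of 289 Control and 80.0% of 150 Null endothelial-like cells had a Col4a1 UMI, at median depths of 14662 and 18400 UMIs and with 25 and 33 shallower cells left out. Unthinned the shares ran the other way, 89.2% and 81.4%. In acinar-like cells 1.65% and 1.29% did after thinning.

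Most other chains of the endothelial-like class were lower in Null. Of 27 measured members 7 were higher and 20 lower, with 1 at least 2-fold higher (2.61% of all measured features) and 18 at least 2-fold lower (8.91%). Beside the 5 above, the members higher were Col13a1 (58 and 64 UMIs, log2 ratio 0.79, 0.26 to 1.33) and Col8a1 (16 and 20 UMIs, 0.97), whose interval included 0. Col3a1 stood at 132 CPM in Control and 14.2 CPM in Null (log2 ratio -3.22), Col1a2 at 101 and 8.44 CPM (-3.58), Col1a1 at 78.3 and 9.95 CPM (-2.98) and Col6a1 at 16.9 and 1.21 CPM (-3.81). Col14a1 had 38 UMIs in Control and 0 in Null, at least 8.06-fold lower against a floor of 3 counts. Col4a5, a type IV chain, was also lower, at 8.64 CPM in Control and 4.52 CPM in Null (-0.93, -1.88 to -0.06). The 10 mesenchymal markers were also all lower, from 140 to 48.2 CPM in sum, with Prrx1, Twist1 and Twist2 at 0 in Null, and the 10 acinar markers from 5002 to 1839 CPM. The 9 endothelial markers were all higher in Null, at 2625 and 4189 CPM in sum. The part of these markers in the collagen ratios was not tested.

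Doublets and free RNA differed in the same direction. The second doublet call marked 23.2% of scored Control and 0.725% of scored Null endothelial-like cells, and the estimated free RNA share was 35.0% and 7.31%. Without the cells of that call the fibrillar ratio went from -1.53 to -0.03, that of Col3a1 to -1.33 and that of Col1a1 to -0.93. The ratios of Col4a1, Col4a2, Col15a1 and Col18a1 were then 0.65, 0.51, 0.62 and 0.54. With free RNA subtracted these were 0.44, 0.30, 0.38 and 0.49, and Col5a2 was 0.87.

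**Figure D4:**
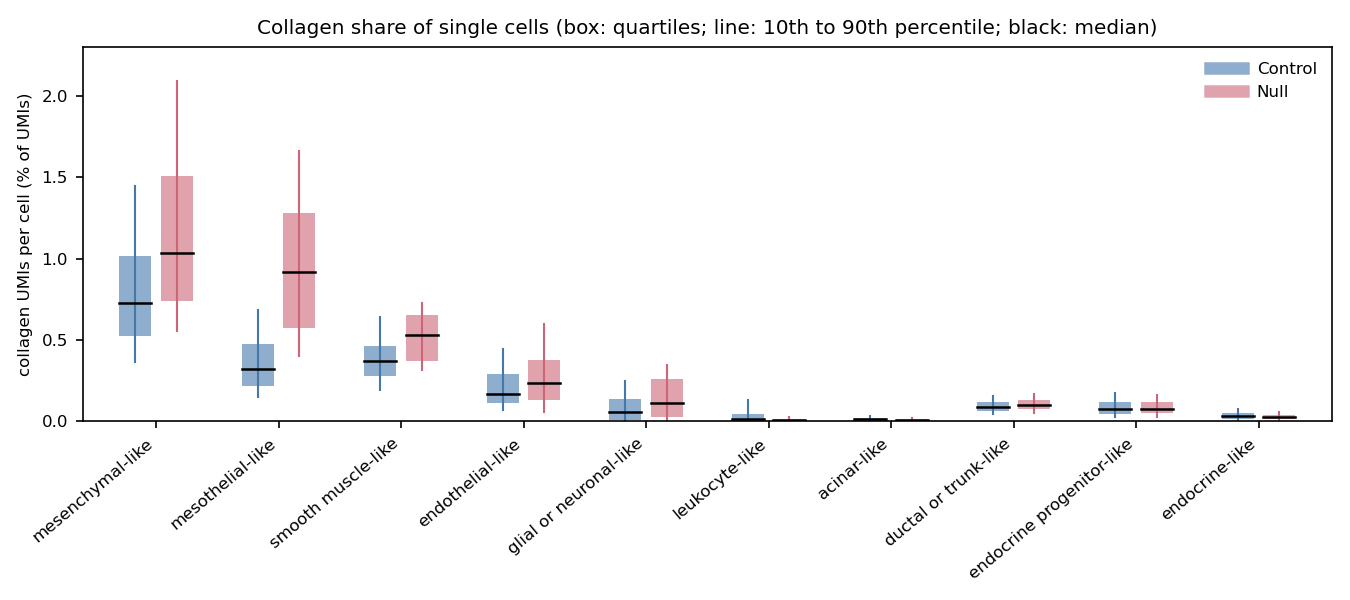
Collagen UMIs as a percent of all UMIs of each cell, by class and library (box, quartiles; line, 10th to 90th percentile; black bar, median). In mesothelial-like cells the Control and Null boxes do not overlap, with medians of 0.319% and 0.914%, whereas in the other classes drawn the boxes overlap.

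In leukocyte-like cells, which are not a usual source of fibrillar chains, the measured ones were lower in Null. Col3a1 stood at 157 CPM in Control and 40.4 CPM in Null leukocyte-like cells (399 and 275 cells), and Col1a1 at 120 and 25 CPM. All 25 measured members were lower in Null, 22 of them by at least 2-fold, against 11.6% of all features measured in the class, and 0 were 2-fold higher, against 3.28%. The median leukocyte-like cell devoted 0.0133% and 0.00668% of its UMIs to collagen. The second doublet call marked 19.9% and 1.2% of the scored cells. The 10 mesenchymal markers, all lower in Null, summed to 133 and 39.5 CPM, and the 10 acinar markers, all lower as well, to 4700 and 1974 CPM. The 9 leukocyte markers, all higher, summed to 4321 and 6042 CPM. Their part in these ratios was not tested.

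Acinar-like cells, the future enzyme-secreting cells, had the lowest collagen level. Of 36 measured members 29 were lower in Null, 9 by at least 2-fold against 3.45% of all measured features, and 0 were 2-fold higher, against 1.73%. Col1a1 stood at 10.2 and 6.67 CPM and Col3a1 at 16 and 9.21 CPM. The second doublet call marked 4.47% of scored Control and 0.328% of scored Null acinar-like cells. Col11a1, a chain that starts fibrils, went against this, at 10.9 CPM in Control and 19.4 CPM in Null (log2 ratio 0.83, 0.73 to 0.93). Col19a1 was highest in acinar-like cells in both libraries, at 1.5 and 2.32 CPM (0.63, 0.35 to 0.91), although the next class, glial or neuronal-like, had an overlapping interval in each.

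Ductal or trunk-like cells, which give rise to ducts and to endocrine cells, carried collagens best known from cartilage, of which Col2a1 and Col9a1 had ratios whose intervals included 0. Col2a1 stood at 104 CPM in Control and 106 CPM in Null (7710 and 6274 UMIs, log2 ratio 0.02, -0.03 to 0.07). Col9a1 was at 75 and 75.9 CPM (0.02, -0.04 to 0.08) and Col27a1 at 80.9 and 87.6 CPM (0.11). Col9a3 was at 103 and 133 CPM (0.37) and Col9a2 at 32.8 and 42.1 CPM (0.36). After thinning, 13% of Control and 13.4% of Null cells had a Col9a1 UMI, at median depths of 19148 and 27399 UMIs, against 0.696% and 0.282% of acinar-like cells. Unthinned, the shares were 65.6% and 71.6%.

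The same epithelium held basement membrane chains. Col18a1 stood at 288 CPM in Control and 346 CPM in Null ductal or trunk-like cells (log2 ratio 0.27). Col4a1 was at 74.1 and 103 CPM (0.47), Col4a2 at 28.2 and 34.8 CPM (0.30) and Col4a5 at 23.9 and 31.1 CPM (0.38). All 5 measured type IV chains were higher in Null, and their sum had a log2 ratio of 0.41. Of all 35 measured members 19 were higher and 16 lower, with 2 at least 2-fold higher (2.80% of all measured features) and 7 at least 2-fold lower (2.3%). The 2 were Col4a4 (31 and 57 UMIs, 1.19) and Col16a1 (218 and 365 UMIs, 1.06), and those lower included Col1a2 at 15.9 and 7.69 CPM and Col6a1 at 3.01 and 1.41 CPM. The 10 acinar markers, all lower in Null, summed to 3035 and 2249 CPM in this class and the 10 mesenchymal markers, with 9 lower, to 53.4 and 42.2 CPM.

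Col18a1 was the most abundant chain of endocrine progenitor-like cells, which go on to form islet cells. It stood at 148 CPM in Control and 205 CPM in Null (log2 ratio 0.47). The type IX chains Col9a3 and Col9a2 and the type XI chain Col11a2 stood out against other classes. Col9a3 stood at 134 CPM in Control and 161 CPM in Null (log2 ratio 0.26), Col9a2 at 109 and 136 CPM (0.32) and Col11a2 at 65.6 and 90.5 CPM (0.46). All 3 were highest in this class in both libraries, and their intervals did not overlap those of the next class. For Col11a2 the next class, ductal or trunk-like cells, was at 13.3 and 13.9 CPM, and for Col9a2 it was endocrine-like cells at 65.9 and 82.0 CPM. Col9a1 and Col2a1 were lower here than in ductal or trunk-like cells, at 38.4 and 38.8 CPM and at 56.3 and 52.4 CPM. Of 31 measured members 22 were lower in Null, 15 by at least 2-fold against 4.57% of all measured features, and 0 were 2-fold higher, against 1.04%. Types I, III, V and VI were among the 15, such as Col3a1 at 99.7 and 21.8 CPM. The second doublet call marked 7.40% of scored Control cells of this class and 0 of 343 scored Null cells, which allows up to 0.875%. The 10 acinar markers, all lower in Null, summed to 3438 and 2032 CPM, and the 10 mesenchymal markers, with 9 lower, to 226 and 190 CPM. Their part in these ratios was not tested.

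Endocrine-like cells kept Col9a2 but little else of this set. Col9a3 was at 29.5 and 19.3 CPM, Col11a2 at 11.1 and 10.7 CPM and Col2a1 at 20.3 and 3.26 CPM. Of 35 measured members 30 were lower in Null, 17 by at least 2-fold against 9.16% of all measured features. The 1 member at least 2-fold higher (background 2.24%) was Col6a3, at 9.23 CPM in Control and 20.9 CPM in Null (log2 ratio 1.18, 0.95 to 1.41), while its partners Col6a1 and Col6a2 were at 4.48 and 1.79 CPM and at 5.68 and 2.31 CPM. The second doublet call marked 15.2% of scored Control and 0.802% of scored Null endocrine-like cells. The 10 acinar markers, all lower in Null, summed to 6815 and 2006 CPM there, and the 12 endocrine markers, all higher, to 28889 and 56537 CPM.

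Glial or neuronal-like cells, many of them neural crest derivatives, held 895 CPM of summed collagen in Control and 1749 CPM in Null. The second doublet call marked 15.7% of scored Control cells of this class and 0 of 83 scored Null cells, which allows up to 3.61%. The class's own 15 markers summed to 3383 and 4526 CPM, with 9 higher and 6 lower in Null. Of 23 measured members 16 were higher in Null, 9 by at least 2-fold against 5.01% of all measured features, and 1 was at least 2-fold lower, against 3.52%. Col14a1 stood at 59.5 CPM in Control and 222 CPM in Null (log2 ratio 1.90), Col4a1 at 118 and 355 CPM (1.59), Col4a2 at 73.4 and 182 CPM (1.31) and Col5a1 at 26.6 and 79.5 CPM (1.58). Col25a1, a transmembrane collagen of neurons, was at 35.3 and 90.9 CPM (1.37). Col20a1 had its highest level in this class in both libraries, with 4 Control and 34 Null UMIs (2.31 and 21.5 CPM) of 147 kept UMIs over all cells. In Control its interval overlapped that of the next class. The part of doublets and markers in these ratios was not tested. Glial and neuronal cells were not separated here, so a different mix of them cannot be told apart from a different level per cell.

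The enzymes and chaperones that mature collagen were taken from a list of 31 genes. In mesothelial-like cells all 27 measured genes of the list were higher in Null, 9 by at least 2-fold, with a median log2 ratio of 0.74. Of all 14539 features measured in this class 6316 were higher, 5.94% by at least 2-fold. P4ha2 and P4ha1, prolyl hydroxylase subunits that stabilise the helix, stood at 26.8 and 97.9 CPM (1.87) and at 80.6 and 196 CPM (1.28). Serpinh1, the collagen chaperone HSP47, was at 710 and 1160 CPM (0.71). Pcolce, which enhances removal of the C-propeptide, was at 26.8 and 86.2 CPM (1.69), and the cross-linking oxidases Loxl1 and Lox at 19.4 and 67.4 CPM (1.80) and at 22.9 and 54.3 CPM (1.25). In mesenchymal-like cells 21 of 29 measured genes were higher, 0 by 2-fold in either direction, with a median of 0.25 and Serpinh1 at 825 and 1039 CPM (0.33), where 3.66% of all features were 2-fold higher and 6.55% lower. In endothelial-like cells 15 of 24 were higher, 1 of them by at least 2-fold against 2.61% of all features, with a median of 0.049. Loxl1, with 25 Control and 0 Null UMIs, was past 2-fold lower there, as were 8.91% of all features.

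Collagen receptors were taken from a list of 9 genes, of which 0 were at least 2-fold higher in mesenchymal-like (background 3.66%), 1 in mesothelial-like (5.94%) and 0 in endothelial-like cells (2.61%). Itgb1, the common beta chain of the collagen-binding integrins, was higher in Null in all 3 classes: at 353 and 547 CPM in mesenchymal-like cells (log2 ratio 0.63), 306 and 511 CPM in mesothelial-like cells (0.74) and 416 and 777 CPM in endothelial-like cells (0.90). Of the 9 measured in mesenchymal-like cells 5 were higher. Adgrg1, a receptor for type III collagen, stood at 6.57 and 2.40 CPM (-1.45) and Itga11 at 10.2 and 4.55 CPM (-1.16). Both were past 2-fold lower, against 6.55% of all features. Adgrg1 was higher in epithelial classes, such as endocrine progenitor-like (93.3 and 131 CPM) and acinar-like cells (25.5 and 26.9 CPM). The part of free RNA, 26.5% of Control and 6.19% of Null mesenchymal UMIs, in its ratio was not tested. Of 8 in mesothelial-like cells 5 were higher, with Mrc2, which takes up collagen fragments, at 8.03 and 22.7 CPM (1.5). In endothelial-like cells 3 of 6 were higher, with the integrin alpha chains Itga2 at 53.5 and 106 CPM (0.98) and Itga1 at 46.1 and 75.1 CPM (0.71). Ddr1, at 12.5 and 5.73 CPM (-1.12), and Ddr2, with 31 Control and 0 Null UMIs, were past 2-fold lower there. Of all features measured in that class 8.91% were.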

How the data were processed

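For each library the authors deposited a matrix of raw UMI counts (integers, per the file headers), and no cell annotation was used here. The submitters' processing notes name Seurat 3.2.3, Cell Ranger 6.1.1, bcl2fastq and the mm10 build. Per the labels' protocols, cells were dissociated with TrypLE and sorted as live DAPI-negative cells after size selection. The sources used here do not say if counting was by strand.

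Barcodes with at least 1000 UMIs, at least 300 genes and under 15% mitochondrially encoded UMIs were kept (27179 Control, 9404 Null). Scrublet in scanpy 1.11.5 removed 535 Null barcodes (5.69%). Its automatic threshold marked 0 Control barcodes, so a score of 0.25 was used and removed 209 (0.769%). A second call, run on those with 5000 or more UMIs, marked 1260 (9.07%) in Control and 292 (3.80%) in Null and served as an alternative. Both libraries were clustered together (2000 variable genes, 30 principal components, 15 neighbours, Leiden resolution 1), without collagens or the maturation and receptor genes among the variable genes, and stromal clusters were clustered again. A cluster took the class with the highest marker score, measured from the 25th percentile over clusters, if 3 or more markers were in at least 10% of its cells, and none if its 10 leading genes held more markers of another class. These thresholds and the joined glial and neuronal list were set after the data were seen, and classes are called by their markers ("-like").

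UMIs were summed per class and library and scaled to CPM with exact Poisson 95% intervals. Ratios carry exact conditional 95% intervals, shares of cells exact Clopper-Pearson ones, and a count of 0 was set to 3 counts. No replicates exist, so no test was run. The ratio code was tested on simulated data. A member was measured in a class with at least 20 UMIs over both libraries. Members named there mostly had at least 100, or a ratio of at least 2-fold whose interval excluded 0, and not all that did were named. The free RNA share of a class came from its acinar enzyme UMIs against the library-wide profile. The members and lists were chosen with earlier results of these data known. Alternatives covered depth, doublets, clustering, free RNA, weighting, thinning, scaling and the UMI minimum.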

Additional observations from a re-analysis of the deposited data

Results flagged for a closer look

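These chains differed in direction between classes, with the interval of each log2 ratio (Null over Control) on opposite sides of 0 in the classes named. The values are the ratio in the first class minus that in the second. The differences themselves were not tested, since each genotype has 1 library.

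Between mesenchymal-like and mesothelial-like cells Col2a1 differed by -3.12 (-1.67 and 1.45) and Col13a1 by -3.12 (-0.63 and 2.48), both being lower in Null mesenchyme and higher in Null mesothelium. Col4a1 differed by 1.48 (0.56 and -0.92) and Col4a2 by 1.03 (0.46 and -0.57), the reverse order. Without the cells marked by the second doublet call both chains were higher in Null in the mesothelial-like class as well (0.96 and 0.73). The mesothelial ratio of Col13a1 fell to 0.42 without the mesothelial-like cluster that held no Control cells. The size of the Col13a1 difference between these classes thus depended on that cluster. For Col2a1 the mesenchymal level was far below that of ductal or trunk-like cells. Over all kept cells Col2a1 stood at 35.7 CPM in Control and 33.4 CPM in Null. The estimated free RNA share of mesenchymal UMIs was 26.5% in Control and 6.19% in Null. The part of free RNA in the Col2a1 difference between these classes was not tested.

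Between mesenchymal-like and endothelial-like cells Col1a1 differed by 3.48, Col1a2 by 4.02 and Col3a1 by 3.82, and Col13a1 by -1.43. Between mesothelial-like and endothelial-like cells Col1a1 differed by 4.89, Col1a2 by 5.16 and Col3a1 by 4.89, while Col4a1 differed by -1.84 and Col4a2 by -1.35. The endothelial part of the type I and III values came from levels of 78.3 to 132 CPM in Control cells, of which 23.2% of those scored were marked by the second doublet call. Without the marked cells the endothelial ratios of Col1a1 and Col3a1, given above, were smaller in size but still negative. The part of those doublets in the differences between classes was not tested.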

How the results depend on the processing

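The summed collagen ratio stayed above 0 in mesenchymal-like, mesothelial-like and endothelial-like cells under every alternative run. In mesenchymal-like cells the 0.49 became 0.60 with collagens among the variable genes, 0.60 with 50 principal components, 0.19 with free RNA subtracted, 0.54 as a mean over cells, 0.57 with clusters weighted alike, 0.54 thinned to 2000 UMIs, 0.48 scaled by median of ratios, 0.61 with clusters of more foreign markers kept and 0.40 without cluster 7. The count of 5 members at least 2-fold higher became 8 with free RNA subtracted and lay between 4 and 6 otherwise. In mesothelial-like cells the 1.49 became 1.41 without the cells of the second doublet call, 1.36, 1.42, 1.24, 1.43 and 1.51 with free RNA subtracted, as a mean over cells, with clusters alike, thinned and by median of ratios, and 1.70 without cluster 18, and the count of 19 lay between 13 and 21. In endothelial-like cells the 0.52 became 0.30 with free RNA subtracted, 0.48 as a mean over cells, 0.66 thinned and 0.42 by median of ratios. The summed mesenchymal ratio of the chains outside the fibrillar, basement membrane and beaded filament families was -0.047 with free RNA subtracted.

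Direction changed for these chains, and the cause was not tested. In mesenchymal-like cells Col9a2 (0.09) was -0.079 with free RNA subtracted, -0.038 thinned and -0.13 without cluster 7, Col16a1 was -0.022 with free RNA subtracted, Col9a3 was 0.53 thinned, and Col8a1, Col25a1 and Col27a1 were 0.34, -0.87 and 0.18 with clusters alike. In mesothelial-like cells leaving out the cells of the second doublet call gave 0.96 for Col4a1, 0.73 for Col4a2, 0.83 for Col9a3 and -0.17 for Col14a1. Col14a1 was -0.068 with free RNA subtracted, -0.051 as a mean over cells and -0.033 thinned, Col9a3 was 0.24 as a mean over cells, 1.55 with clusters alike and 0.61 thinned, Col4a2 was 0.020 with clusters alike and Col6a6 was -0.31 without cluster 18. Leaving out cluster 7 or 18 and keeping clusters with more foreign markers were added after seeing the data. No paired analysis was possible because each group has 1 library. Null cells were deeper, and members under 20 UMIs in a class could not be compared at this depth.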
